A study of Mus musculus with 87 samples.

Results

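The genes described here are 6 members of the Nodal signalling pathway, Nodal, Gdf3, Tdgf1, Lefty1, Lefty2 and Cer1, of 26171 genes listed in each expression table of a study on exon 4 of Suz12. They were chosen by the log2 fold changes of one comparison, neuronal precursors (NP) of the CSex4 line against wild type, in which Lefty1 and Lefty2 rose most. Values of that comparison are therefore given as a description only, and the tests below come from the other comparisons.

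The cells were mouse embryonic stem cells (ESC) of the line 129-B13, grown in serum with LIF, and NP made from them as embryoid bodies that received retinoic acid on day 4 and were harvested on day 8. Suz12 is a core subunit of Polycomb repressive complex 2, which places the repressive histone mark H3K27me3, and exon 4 of Suz12 is alternatively spliced. The groups were WT, CSex4 (WT cells in which exon 4 is always included), Deltaex4 (exon 4 deleted), KO (full Suz12 knock-out), and rescues of the KO with the long (KO-L) or the short (KO-S) isoform. In ESC only, 2 further rescues of the KO carried a mutation called 3D, which lies downstream of exon 4 at position 196, in the long (KO-L3D) or the short (KO-S3D) isoform, placed in the Rosa26 locus. Thus KO-L, KO-S, KO-L3D and KO-S3D all lack the endogenous Suz12 and differ in the isoform put back. Whether each line was a single clone is not given in the sources used here. RNA was measured by sequencing of polyadenylated transcripts in 32 libraries, 3 each of ESC WT and KO, 2 of every other group, and 4 of NP WT in 2 pairs, replicates 1 and 2 and replicates 3 and 4, which the authors used in different tables. The labels do not say whether replicates came from separate cultures, so the p-values measure the spread between these libraries, which may be technical.

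Nodal is a secreted ligand of the TGF-beta family that acts through activin receptors, Smad2 and Smad3 and their DNA-binding partner Foxh1. Gdf3 is a related ligand, and Tdgf1 (Cripto) is the membrane-anchored co-receptor that Nodal requires. Lefty1 and Lefty2 are secreted antagonists that Nodal signalling itself switches on, so they serve both as feedback inhibitors and as common readouts of the pathway. Cer1 is a secreted antagonist of Nodal and BMP ligands made in the anterior visceral endoderm. The pathway is active in undifferentiated stem cells and in the epiblast, drives mesoderm and endoderm formation, and is shut down as cells become neural.

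In the RefSeq annotation of GRCm38.p6, Lefty2 lies at chr1:180893108-180899107 and Lefty1 at chr1:180935022-180938401, with 35914 bases between them. Nodal lies at chr10:61417972-61425338, Gdf3 at chr6:122605403-122610087, Tdgf1 at chr9:110939608-110946158 and Cer1 at chr4:82881751-82885151. The RefSeq promoter table, in the same build, held 3 of the 6 members. The 250 bases upstream of the start of Nodal (chr10:61417722-61417971, plus strand) and of Tdgf1 (chr9:110946159-110946408, minus strand) are shown because these members, the ligand and its co-receptor, parted in several comparisons below. They are written 5′ to 3′, with capitals marking matches on either strand to AATNNACA, the letters bound by Foxh1, and to CAGAC, a Smad-binding sequence.
Nodal: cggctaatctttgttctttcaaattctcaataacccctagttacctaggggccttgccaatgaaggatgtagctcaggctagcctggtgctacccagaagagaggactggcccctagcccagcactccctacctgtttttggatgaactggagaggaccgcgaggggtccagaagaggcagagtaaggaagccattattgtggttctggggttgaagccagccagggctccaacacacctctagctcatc
Tdgf1: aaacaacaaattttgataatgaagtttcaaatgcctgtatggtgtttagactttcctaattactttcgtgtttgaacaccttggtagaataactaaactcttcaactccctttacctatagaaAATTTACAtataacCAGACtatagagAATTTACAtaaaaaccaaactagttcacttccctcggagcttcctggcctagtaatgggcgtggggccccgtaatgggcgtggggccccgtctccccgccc
The Nodal window held neither motif, and the Tdgf1 window held AATNNACA 2 times and CAGAC once, with no overlap between them. Of 32851 promoter windows of this length, 10.9% held AATNNACA on either strand, 1.12% held it 2 or more times, and 42.2% held CAGAC. These are matches of letters and not measured binding.

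Depth was 23570194 to 47201666 reads per library, recovered from the deposited tables. Suz12, the targeted gene, was lower in KO libraries than in every WT library of the same cell type, at 1315 to 2709 normalised reads against 4733 to 9244 in ESC and at 1075 to 1125 against 2794 to 5195 in NP. Its deposited log2 fold change over KO was 1.35 in NP KO-L and 1.09 in NP KO-S, and over WT in ESC it was -1.05 in KO-L, -0.83 in KO-S, -1.85 in KO-L3D and -0.06 in KO-S3D, so KO-L3D had the Suz12 level of the KO (-1.82). Whether reads of the rescue constructs were counted as Suz12 is not given in the sources used here. The summed level of 9 stem cell markers was 52918 to 185256 normalised reads in ESC and 5569 to 39873 in NP. The sum of 10 neural markers was 1085 to 14341 in ESC and 3111 to 46293 in NP. In NP KO the neural sum was 3111 to 3474, inside the range of the ESC libraries. The sums of NP CSex4 (13083 to 13114), NP KO-L (10567 to 13921) and 1 NP WT library (12599) also lay inside it. By these neural markers alone the NP label is thus not borne out for any of them. The stem cell sum of every NP library, however, lay below that of every ESC library. Among NP WT libraries, one of replicates 1 and 2 (called library b) stood apart, with a neural sum of 12599 against 41904 to 46293 in the other 3 and a sum of 10 endoderm markers of 39075 against 6116 to 24039. Library letters name the libraries that the authors' tables put together and are not replicate numbers. The 2 NP CSex4 libraries differed from each other beyond sampling noise but by less than every other pair of same-group libraries compared, with a median chi-square of 0.84 per gene against 2.20 to 17.6 (0.455 for sampling noise alone).

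In ESC every member but Cer1 was abundant, and in NP all of these 5 were at lower levels in most groups. Levels are given as normalised reads, which are reads per library scaled for depth and not for gene length, so they are compared between samples and not between genes. Where libraries of a group are said to overlap those of another group or not, this describes the values only. The share of all genes without such overlap was not counted. Nodal ranged from 1330 to 3722 (median 2031) over 18 ESC libraries and from 42.2 to 1681 (median 221) over 14 NP libraries. Gdf3 ranged from 1947 to 5457 (median 2735) in ESC and from 18.9 to 777 (median 95.3) in NP. Tdgf1 ranged from 14036 to 43741 (median 30871) in ESC and from 49.4 to 1388 (median 554) in NP. For Lefty1 the ranges were 486 to 8802 (median 2621) in ESC and 18.0 to 3723 (median 197) in NP, and for Lefty2 they were 819 to 15604 (median 5139) and 11.7 to 3905 (median 138). The highest NP values of both Lefty genes thus lay inside their ESC range, whereas for Tdgf1 the NP and ESC ranges did not overlap. Cer1 had at most 4 reads in any library, and 0 reads in 10 of 18 ESC and 5 of 14 NP libraries, where a count of 0 allows up to 3 reads. It received an adjusted p in 1 of the 13 tables only, ESC Deltaex4, and was called in none, so the counts below are over the other 5 members. Lefty1 and Lefty2 are close paralogs and Tdgf1 has processed pseudogenes, and how reads shared between copies were assigned is not given in the sources used here. The non-coding gene Gm39715 overlaps Lefty1 in the annotation, and without knowledge of strand in the counting, reads of both cannot be told apart.

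**Figure D1:**
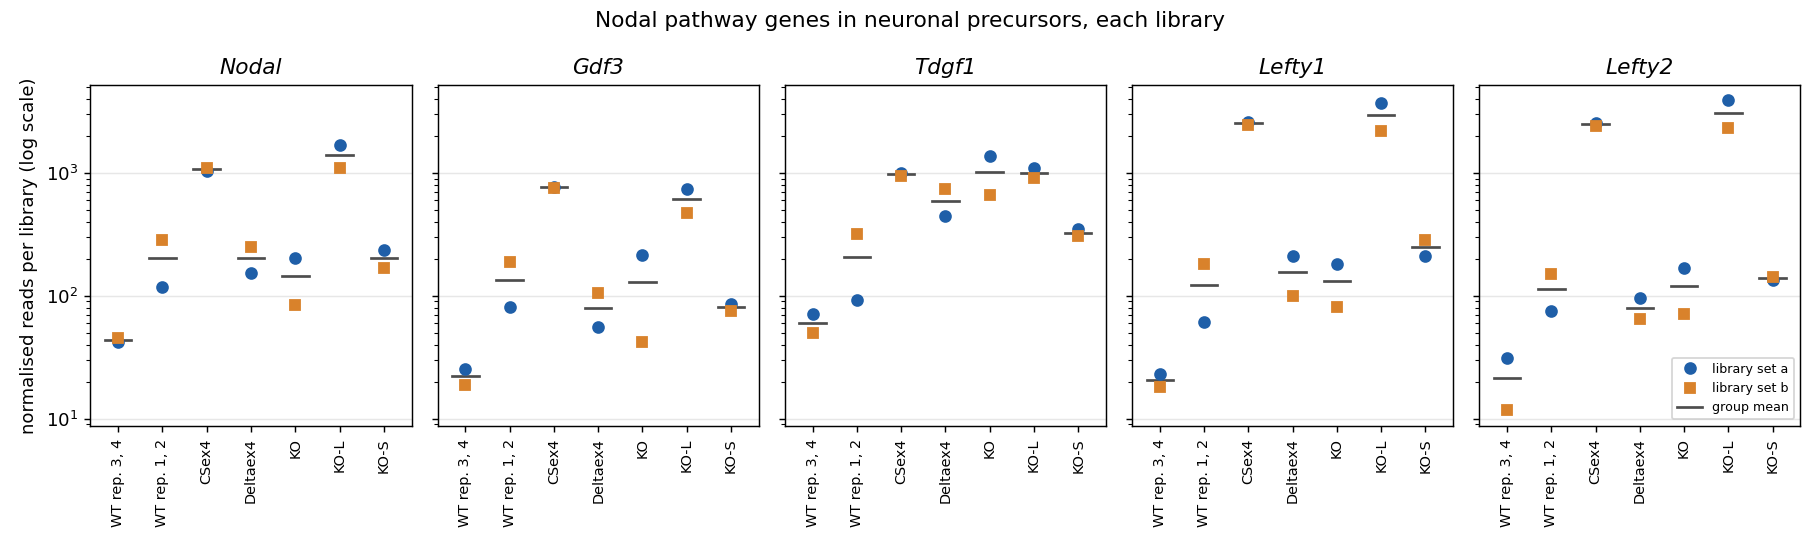
Normalised reads of 5 Nodal pathway genes in each NP library (points, log scale) by group, with the group mean as a bar. CSex4 and KO-L stand above all other groups for Nodal, Gdf3, Lefty1 and Lefty2, while for Tdgf1 the KO library a, at 1388, is the highest.

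In NP CSex4, the comparison that selected the members, all 5 were higher than in WT replicates 1 and 2. Lefty1 measured 2628 and 2477 normalised reads in the CSex4 libraries against 61.3 and 183 in WT, and Lefty2 2561 and 2419 against 75.3 and 150. Nodal measured 1037 and 1103 against 118 and 286, and Gdf3 777 and 749 against 80.6 and 188. Tdgf1 measured 1010 and 947 against 92.0 and 322. No CSex4 library overlapped a WT library for any of the 5, though the share of all genes without overlap was not counted. In the authors' deposited table the log2 fold changes were 4.58 for Lefty1, 4.55 for Lefty2, 2.63 for Gdf3, 2.54 for Nodal and 2.50 for Tdgf1. That Lefty1 and Lefty2 had the largest of these follows from how the members were chosen. Of all genes tested, 5.53% were called (adjusted p under 0.05) and 4.08% were called higher. Without WT library b, which stood apart, the differences were 5.36 for Lefty1, 5.03 for Lefty2, 3.40 for Tdgf1, 3.23 for Gdf3 and 3.17 for Nodal. Without WT library a they were 3.79 for Lefty1, 4.05 for Lefty2, 1.60 for Tdgf1, 2.02 for Gdf3 and 1.90 for Nodal. The sum of the stem cell markers was 39028 to 39873 in CSex4 against 9376 to 13884 in these WT libraries, and 7 of the 9 were called higher, with none at 0. The neural sum was 13083 to 13114 in CSex4 against 12599 and 41904 in WT. The part of these markers in the rise of the members was not tested. In such bulk samples, fewer cells of a type and less RNA per cell cannot be told apart.

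Nodal, Gdf3, Lefty1 and Lefty2 were also higher when the long isoform was put back into the KO. This comparison, NP KO-L against NP KO, shares no library with the one that selected the members. Lefty2 measured 3905 and 2310 normalised reads in KO-L (3107 ± 1128, SD, n = 2) against 168 and 70.6 in KO (119 ± 68.7, SD, n = 2). Lefty1 measured 3723 and 2198 against 183 and 80.8. Nodal measured 1681 and 1106 against 204.0 and 84.9, and Gdf3 746 and 474 against 217 and 41.9. For these 4 genes the KO-L and KO libraries did not overlap, though the share of all genes without overlap was not counted. In the authors' deposited table (DESeq2, adjusted over all genes tested) the log2 fold change was 4.76 for Lefty2 (SE 0.24, adjusted p 9.58e-83) and 4.53 for Lefty1 (SE 0.24, adjusted p 2.89e-77). Nodal rose by 3.35 (SE 0.28, adjusted p 1.76e-31) and Gdf3 by 2.58 (SE 0.40, adjusted p 2.23e-09). Tdgf1, the co-receptor, did not share this rise: it measured 1106 and 904 in KO-L against 1388 and 661 in KO, which overlap, with a log2 fold change of 0.05 (SE 0.26, adjusted p 0.931). Thus 4 of 5 members were called higher, against 10.9% of all genes (24.7% called in either direction). KO library a had more reads of all 5 than library b. Without KO library b the Gdf3 difference was 1.45 and was no longer called (limma, adjusted p 0.0827), and without KO-L library a it was 2.30 (adjusted p 0.104). The stem cell marker sum was 20766 to 30104 in KO-L against 5569 and 12064 in KO, with 7 of 9 markers called higher and Klf4 lower, and the neural sum was 10567 to 13921 against 3111 to 3474. Of 10 endoderm markers 6 were called lower, and of 5 trophoblast markers 3 were lower and 1 higher, with a trophoblast sum of 6096 to 6172 against 23715 to 24345. The part of these markers in the members' rise was not tested.

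With the short isoform no member was called higher than in the KO. In NP KO-S, Lefty1 measured 211 and 287 normalised reads, just above both KO libraries, and Lefty2 135 and 141, between them. Nodal measured 237 and 167, which overlaps KO, and Gdf3 86.1 and 75.9, which lies between the KO libraries. The deposited log2 fold changes over KO were 1.01 for Lefty1 (SE 0.45, adjusted p 0.0657), 0.59 for Nodal (SE 0.41, adjusted p 0.274), 0.34 for Lefty2 (SE 0.49, adjusted p 0.641) and -0.26 for Gdf3 (SE 0.59, adjusted p 0.780). Tdgf1 was the only member called: it measured 347 and 307 in KO-S, below both KO libraries, and fell by 1.55 (SE 0.27, adjusted p 1.53e-07, deposited DESeq2 table). So 1 of 5 members was called, lower, where 18.0% of all genes were called lower and 34.5% in either direction, and this count is near the background. Without KO library a the Tdgf1 difference was -1.01 and was not called (limma, adjusted p 0.228), and the call also ended without either KO-S library (0.123 and 0.143). Among the markers in that comparison, 5 of 9 stem cell markers were called lower and 1 higher, all 10 neural markers were called higher, and 6 of 10 endoderm and 4 of 5 trophoblast markers lower, and their part in the Tdgf1 value was not tested.

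The 2 isoforms were compared directly in a limma fit on the recovered reads, since no deposited table sets one rescue against the other. All 5 members were higher in NP KO-L than in NP KO-S, and no library overlapped, though the share of all genes without overlap was not counted. The differences were 4.43 for Lefty2 (SE 0.52, adjusted p 0.000696), 3.53 for Lefty1 (SE 0.55, adjusted p 0.00241), 2.77 for Nodal (SE 0.48, adjusted p 0.00374) and 2.86 for Gdf3 (SE 0.66, adjusted p 0.0128). Tdgf1 differed by 1.61 (SE 0.52, adjusted p 0.0450, limma), a call that ended with each of the 4 libraries left out in turn (adjusted p 0.117 to 0.203), and the Gdf3 call also ended without KO-L library a or either KO-S library (0.0625 to 0.102). In this fit 12.9% of all genes were higher in KO-L.

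**Figure D2:**
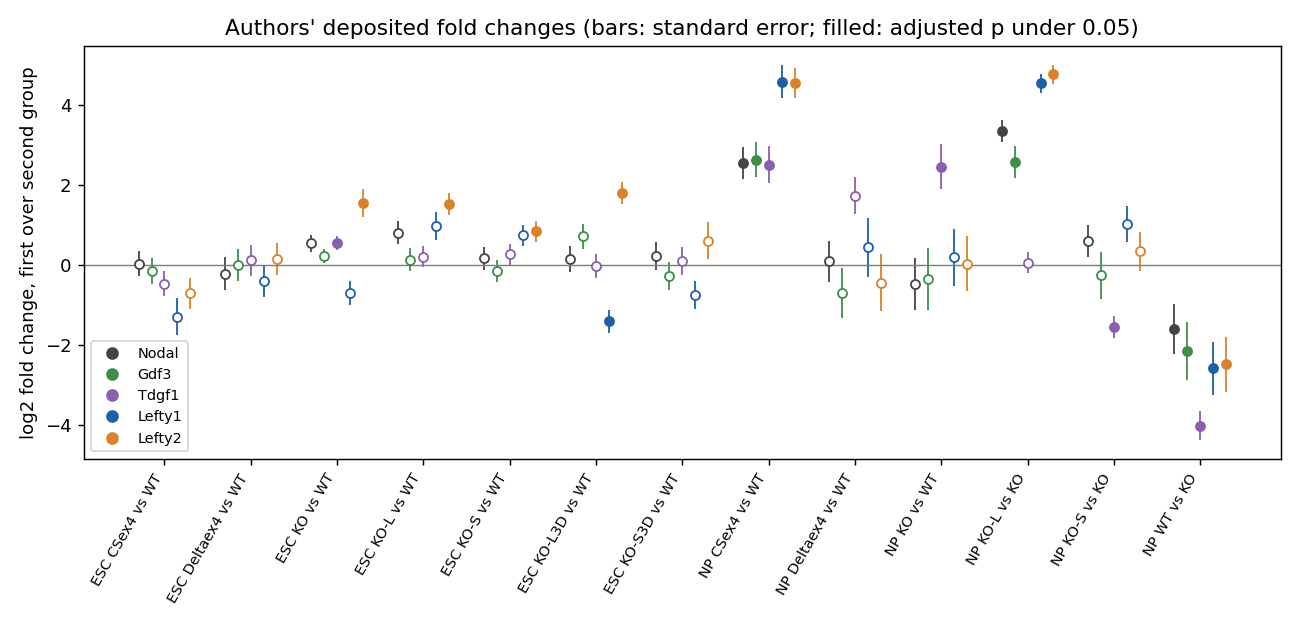
The authors' deposited log2 fold changes of 5 members (points, with the standard error as bars) in all 13 comparisons, filled where the adjusted p was under 0.05. NP CSex4 and NP KO-L share large rises of Lefty1 and Lefty2, Tdgf1 lies near 0 only in the second, and Lefty1 and Lefty2 have opposite signs in ESC KO and ESC KO-L3D. Comparisons of one cell type share control libraries.

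Whether the knock-out itself changed the members in NP depended on which pair of WT libraries it was set against. Against WT replicates 1 and 2, only Tdgf1 was called: 1388 and 661 normalised reads in KO against 92.0 and 322 in WT, a log2 fold change of 2.45 (SE 0.56, adjusted p 0.000183, deposited DESeq2 table). Nodal (-0.49, adjusted p 0.674), Gdf3 (-0.36, 0.810), Lefty1 (0.19, 0.898) and Lefty2 (0.03, 0.986) were not, and 1 of 5 called higher compares with 11.6% of all genes (21.4% in either direction). Without WT library b, Tdgf1 differed by 3.37 and Lefty1 by 0.98 (limma, adjusted p 0.000156 and 0.153). Without KO library a, Gdf3 was called lower in the KO (-1.53, limma adjusted p 0.0445). Against WT replicates 3 and 4 all 5 were lower in WT than in KO. Lefty1 measured 23.1 and 18.0 in these WT libraries, and Lefty2 31.2 and 11.7. Nodal measured 42.2 and 44.9, Gdf3 25.5 and 18.9, and Tdgf1 70.6 and 49.4. Every one of these values lies below both KO libraries. The deposited log2 fold changes of WT over KO were -4.02 for Tdgf1 (SE 0.36, adjusted p 2.39e-27), -2.58 for Lefty1 (SE 0.66, adjusted p 0.000622), -2.49 for Lefty2 (SE 0.68, adjusted p 0.00131), -2.15 for Gdf3 (SE 0.72, adjusted p 0.0108) and -1.60 for Nodal (SE 0.62, adjusted p 0.0339). Here 17.3% of all genes were called lower and 32.9% in either direction. Of the markers, 6 of 9 stem cell genes were lower in WT and 1 higher, 9 of 10 neural genes were higher, and 5 of 5 trophoblast genes were lower, and their part in the members' values was not tested. The Nodal and Gdf3 calls ended without KO library a (limma, adjusted p 0.149 and 0.192) and without either WT library (0.0564 to 0.111), while those of Tdgf1, Lefty1 and Lefty2 held with each library left out. Tdgf1 was the one member called higher in the KO with both WT pairs.

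The levels of all 5 members also differed between the 2 WT pairs, without a called difference. Replicates 1 and 2 exceeded replicates 3 and 4 by 2.44 for Gdf3, 2.41 for Lefty2, 2.32 for Lefty1, 2.05 for Nodal and 1.53 for Tdgf1 on the log2 scale, with no overlap of libraries, yet none passed the limma test (adjusted p 0.156 to 0.314). Only 0.0312% of all genes did. Without WT library a all 5 were called, with WT library b then standing alone. Set against WT replicates 3 and 4, all 5 members were higher in KO-L, by 7.22 for Lefty2, 7.06 for Lefty1, 4.94 for Nodal, 4.70 for Gdf3 and 4.06 for Tdgf1 (limma, adjusted p 4.55e-05 to 0.000785, against 20.9% of all genes higher). In KO-S, 4 of 5 were higher, by 3.53 for Lefty1 (adjusted p 0.00586), 2.79 for Lefty2 (0.0126), 2.45 for Tdgf1 (0.0195) and 2.17 for Nodal (0.0221), while Gdf3 differed by 1.84 (0.0981, limma). There 6.25% of all genes were higher, and leaving out 1 library left 0 to 2 of these 4 calls.

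Deletion of exon 4 gave no called change in NP. Deltaex4 libraries measured 211 and 99.4 for Lefty1, 95.3 and 64.6 for Lefty2, 154 and 250 for Nodal and 55.3 and 104 for Gdf3, and for each of these genes the range overlapped that of WT replicates 1 and 2. Tdgf1 measured 448 and 739, above both WT libraries, with a deposited log2 fold change of 1.73 (SE 0.46, adjusted p 0.131). Just 0.0809% of all genes were called in this table. Without WT library b the Tdgf1 difference was 2.63 (limma, adjusted p 0.166). The neural sum of Deltaex4, 42202 to 42764, lay near that of 3 of the 4 WT libraries.

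**Figure D3:**
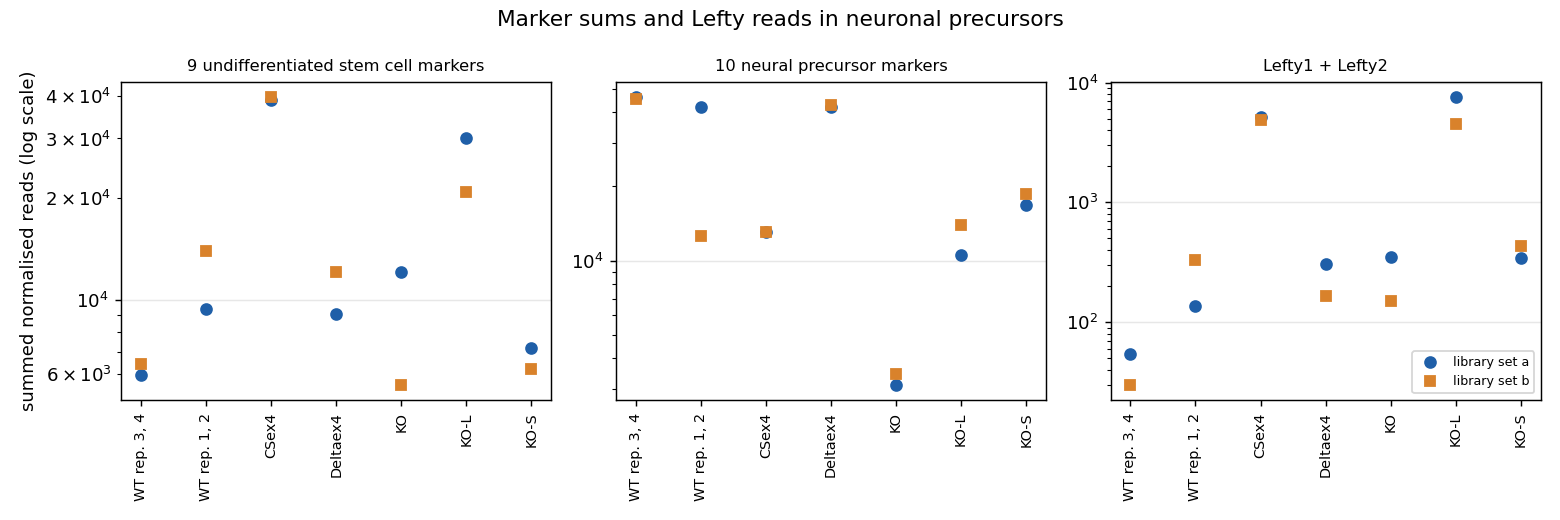
Summed normalised reads (log scale) of the stem cell markers, of the neural markers and of Lefty1 plus Lefty2 in each NP library. CSex4 and KO-L, with stem cell sums from 20766 to 39873, hold the highest Lefty values, while KO-S, with a stem cell sum of 6219 to 7194, does not.

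The order of Lefty1 levels in NP, by group mean, was KO-L, CSex4, KO-S, Deltaex4, KO, WT replicates 1 and 2, and WT replicates 3 and 4. KO-L and CSex4 overlapped, CSex4 and KO-S were apart, the 4 groups from KO-S to WT replicates 1 and 2 each overlapped the next, and WT replicates 3 and 4 lay below. Nodal and Gdf3 fell in the same 3 levels, with KO-L and CSex4 on top, although for both genes KO-L and CSex4 did not overlap. In Tdgf1 the KO was highest, at a mean of 1024, followed by KO-L and CSex4.

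The difference of the knock-out effect between NP and ESC was called for Tdgf1 with both NP WT pairs. By limma the ESC rise of Tdgf1 was not called (adjusted p 0.155). The NP KO libraries had a neural sum of 3111 to 3474, inside the range of the ESC libraries, as was that of NP WT library b (12599). Their stem cell sum, 5569 to 12064, lay below that of every ESC library (52918 or more). The part of these marker levels in the differences was not tested. The ESC and NP tables share no library, and the difference of the KO effects was tested as the difference of the deposited log2 fold changes over its combined standard error, adjusted over all genes. Tdgf1 rose by 0.54 in ESC and by 2.45 in NP, a difference of 1.92 (SE 0.59, adjusted p 0.0131 over the DESeq2 fold changes), when NP WT replicates 1 and 2 were used. The other 4 were not called, at -1.51 for Lefty2 (adjusted p 0.206), -1.03 for Nodal (0.372), 0.90 for Lefty1 (0.531) and -0.57 for Gdf3 (0.731), while 13.7% of all genes were. With NP WT replicates 3 and 4, the difference was 3.48 for Tdgf1 (adjusted p 3.61e-16), 3.29 for Lefty1 (9.49e-05) and 1.94 for Gdf3 (0.0432), where 20.5% of all genes were called. Lefty2 (0.95, adjusted p 0.436) and Nodal (1.06, 0.281) were not called in that comparison either.

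**Figure D4:**
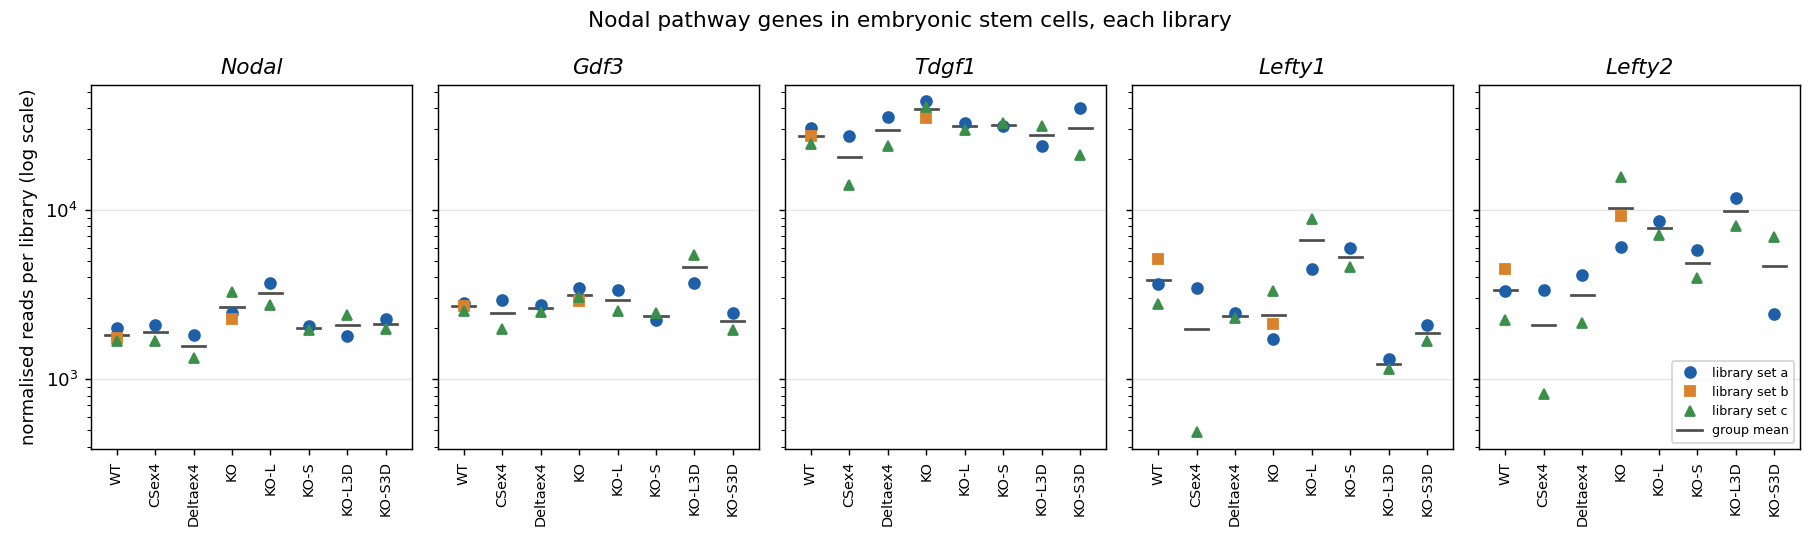
Normalised reads of 5 members in each ESC library (points, log scale) by group, with the group mean as a bar. Lefty1 is lowest in one CSex4 library (486) and in KO-L3D, and Lefty2 is highest in KO and KO-L3D.

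In ESC KO, Lefty2 and Tdgf1 were higher than in WT. Lefty2 measured 6016, 9166 and 15604 normalised reads against 3343, 4511 and 2227 in WT, with no overlap, a deposited log2 fold change of 1.54 (SE 0.35, adjusted p 0.000176, DESeq2). Lefty1, which was not called, measured 1728, 2134 and 3311 against 3676, 5119 and 2779, which overlap, with -0.71 (SE 0.30, adjusted p 0.0823). Tdgf1 measured 43741, 34757 and 40654 against 30344, 27222 and 24372, with no overlap, and rose by 0.54 (SE 0.17, adjusted p 0.0165). Nodal measured 2461, 2278 and 3269 against 1997, 1757 and 1689, with 0.54 (SE 0.21, adjusted p 0.0570), and Gdf3 changed by 0.21 (SE 0.17, adjusted p 0.440). Thus 2 of 5 were called higher, against 11.0% of all genes (18.3% in either direction). In the limma fit on recovered reads the Tdgf1 call ended (adjusted p 0.155) and Nodal was called (0.0467), and the Lefty2 call (0.0490) ended with each library left out in turn (0.0528 to 0.173).

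Lefty2 was called higher than WT in both unmutated rescues by the deposited tables. In ESC KO-L, Lefty2 measured 8556 and 7133, above every WT library, with a deposited log2 fold change of 1.52 (SE 0.28, adjusted p 2.43e-05), the only call among 5 members where 1.46% of all genes were called higher and 2.23% in all. Lefty1 measured 4502 and 8802 (0.98, adjusted p 0.129) and Nodal 3722 and 2756, above every WT library (0.80, adjusted p 0.140). In ESC KO-S, Lefty2 measured 5766 and 3978, of which the lower overlaps WT, with 0.84 (SE 0.26, adjusted p 0.0214, DESeq2), again the only call where 4.28% of all genes were called higher and 7.91% in all. Lefty1 there measured 5939 and 4579 (0.74, adjusted p 0.0553). Neither Lefty2 call was made by limma on the recovered reads (adjusted p 0.256 in KO-L and 0.516 in KO-S). Between the 2 rescues in ESC, Nodal was 0.67 higher in KO-L (95% interval 0.21 to 1.14, limma adjusted p 0.0361, against 13.9% of all genes higher), a call that ended without KO-L library a (0.256) or either KO-S library. Lefty2 differed by 0.71 (95% interval -0.65 to 2.06) and Lefty1 by 0.27 (95% interval -1.08 to 1.63), neither of them called.

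Among the 7 ESC tables, the gap between the fold changes of the antagonists was largest in the rescue with the 3D form of the long isoform. Suz12 measured 1734 and 2684 normalised reads in KO-L3D, against 3462 and 3877 in KO-L and 5062 and 10222 in KO-S3D. The part of the Suz12 level in the KO-L3D values was not tested. In ESC KO-L3D, Lefty2 measured 11780 and 8018, above every WT library, and Lefty1 1320 and 1143, below every WT library. The deposited log2 fold changes were 1.80 for Lefty2 (SE 0.28, adjusted p 7.72e-09) and -1.41 for Lefty1 (SE 0.29, adjusted p 3.71e-05). Gdf3 measured 3694 and 5457, above every WT library, with 0.71 (SE 0.31, adjusted p 0.0908), and was called by limma (0.00913) unless KO-L3D library c was left out. Here 8.22% of all genes were called higher, 10.1% lower and 18.3% in all. By limma the Lefty1 call ended without either KO-L3D library, WT library a or WT library b (adjusted p 0.0798 to 0.154), and the Lefty2 call without either KO-L3D library, WT library a or WT library c (0.0796 to 0.211). Against the unmutated long isoform, KO-L3D was lower by 2.36 for Lefty1 (SE 0.63, limma adjusted p 0.0112) and by 0.62 for Nodal (adjusted p 0.0384), and higher by 0.62 for Gdf3 (adjusted p 0.0354), where 19.3% of all genes were lower and 17.2% higher. Lefty2 was not called (0.31, 95% interval -1.04 to 1.67). The Lefty1 call ended without KO-L library c (-1.87, adjusted p 0.0950) and without KO-L3D library c (-2.25, 0.0627). Those of Nodal ended without library a of either group (0.243 and 0.262), and those of Gdf3 without library c of either group (0.255 and 0.312).

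The 3D form of the short isoform and the 2 exon 4 lines gave no deposited call among the members in ESC. In KO-S3D, Lefty2 measured 2424 and 6924 and Lefty1 2087 and 1684, with log2 fold changes of 0.60 (adjusted p 0.613) and -0.76 (adjusted p 0.274), where 3.23% of all genes were called. Against KO-S, Lefty1 was 1.48 lower in KO-S3D (95% interval -2.83 to -0.12, adjusted p 0.128), no member was called by limma and 14.8% of all genes were. Between the 3D forms, Gdf3 was 1.04 higher in KO-L3D (SE 0.21, limma adjusted p 0.0333, against 0.522% of all genes higher), and that call ended without KO-L3D library c (0.193) or either KO-S3D library. In ESC CSex4, library a measured 3476 for Lefty1 and 3381 for Lefty2, like WT, and library c 486 and 819, below every other ESC library. The log2 fold changes were -1.29 for Lefty1 (adjusted p 0.129) and -0.71 for Lefty2 (adjusted p 0.489), where 2.41% of all genes were called. Without library a both were called lower (limma, -2.94 with adjusted p 0.00238 and -1.98 with 0.0470), resting on library c alone. So the CSex4 rise in NP had no counterpart among the ESC values, and the difference between cell types was not tested for CSex4 because the members were selected on that NP comparison. Stem cell markers were also lower in ESC CSex4, at a sum of 52918 to 76827 against 102738 to 124545 in WT, with Nanog, Esrrb and Klf4 called lower, and the part of this in the Lefty values was not tested. In ESC Deltaex4 no member was called and the deposited share of called genes was 0% (DESeq2, with 135 genes at an unadjusted p under 0.05, none of them a member).

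**Figure D5:**
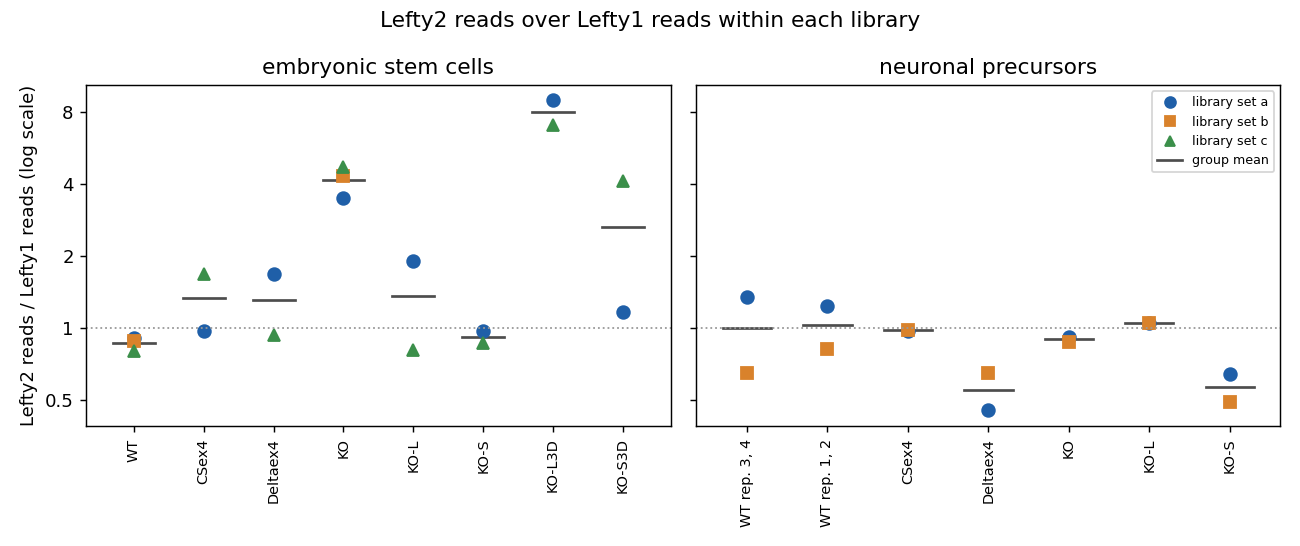
Lefty2 reads divided by Lefty1 reads within each library (log scale), with the group mean as a bar and a dotted line at 1. The KO and KO-L3D libraries lie from 3.48 to 8.92 and the ESC WT libraries from 0.801 to 0.909. All ESC CSex4, Deltaex4 and KO-S3D libraries also lie above every ESC WT library. The NP libraries lie from 0.452 to 1.35.

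The balance of the 2 antagonists within a library does not depend on the scaling between libraries, and it separated some ESC groups. Lefty2 reads per Lefty1 read were 0.801 to 0.909 in the 3 ESC WT libraries, 3.48 to 4.71 in the 3 KO libraries and 7.01 to 8.92 in KO-L3D. With the unmutated isoforms the ratio was 0.869 to 0.971 in KO-S, close to WT, and 0.810 and 1.90 in KO-L. The KO-S3D libraries split, at 1.16 and 4.11, as did those of ESC CSex4 (0.972 and 1.68) and ESC Deltaex4 (0.938 and 1.68). All libraries of these groups lay above every ESC WT library, so a ratio above WT was not particular to KO and KO-L3D. In NP the WT libraries had ratios of 0.819 and 1.23 in replicates 1 and 2 and of 0.650 and 1.35 in replicates 3 and 4. The NP KO libraries, at 0.873 and 0.916, lay inside the NP WT range, as did CSex4 (0.975 and 0.976) and KO-L (1.05 and 1.05). The lowest NP ratios were 0.452 to 0.650 in Deltaex4 and 0.492 to 0.643 in KO-S. The lowest WT ratio, 0.650, was close to these and rested on 20 Lefty1 and 13 Lefty2 reads. These ratios were noticed in the data and are a description, and 3 libraries against 3 cannot give an exact permutation p below 0.1. The reads are not divided by gene length, so a ratio of 1 does not mean equal amounts of transcript.

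Among 33 other genes of the pathway, listed by role, the share called varied with the comparison. In NP KO-L against KO, 6 of 32 with an adjusted p were called higher and 3 lower, where 24.7% of all genes were called, with a median log2 fold change of 0.07 over the list against 0.01 over all genes. Foxh1, the DNA-binding partner of Smad2 and Smad3, rose by 3.43 (SE 0.35, adjusted p 7.06e-21, deposited DESeq2 table), from 42.9 and 177 normalised reads in KO to 789 and 1209 in KO-L. Inhba, which encodes an activin subunit, rose by 3.54 (adjusted p 4.66e-12), and the target Eomes, a mesendoderm regulator, by 1.33. Lhx1, also listed as a target, rose by 2.20, to 572 and 702 normalised reads in KO-L. Its level was higher in KO-S (1062 and 1269) and in WT replicates 3 and 4 (3626 and 5432), where the members were lower. Foxa2 and Gsc, which Nodal induces in endoderm and organiser cells, fell by 3.12 and 3.30 in the same table, in which 6 of 10 endoderm markers were also called lower. Fst, which binds activin, fell by 1.49. Receptors were not among the called genes (0 of 5 with an adjusted p). In NP CSex4, given as description, 4 of 27 were called higher and none lower, where 4.08% of all genes were called higher: Fstl3 (2.92), Foxh1 (2.18), Eomes (2.05) and Inhbb (1.95). Its list median was -0.13 against -0.04 over all genes.

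In NP KO-S against KO, 5 of 31 were higher and 3 lower, where 34.5% of all genes were called, with Lhx1 (3.09), Otx2 (1.95) and the receptor Acvr2b (0.95) among the higher and Inhbb (-2.49), Pmepa1 (-0.94) and Foxa2 (-0.75) the lower ones. In NP Deltaex4, where 0.0809% of all genes were called, the one called gene of the list was Otx2, an anterior neural and epiblast factor, at 4.05 (adjusted p 2.16e-09). In NP KO against WT replicates 1 and 2, Gsc (2.90), Foxa2 (2.21) and Pmepa1 (1.36) rose, and Lhx1 (-3.82) and Acvr2b (-1.08) fell, 5 of 31 where 21.4% of all genes were called. Against WT replicates 3 and 4, with WT over KO, Foxa2 (-1.81), Pmepa1 (-1.16), Eomes (-3.35), Furin (-0.77) and Smad7 (-1.09) were lower in WT, and Lhx1 (5.03), Acvr2b (1.18) and Acvr2a (0.85) higher, 8 of 31 where 32.9% of all genes were called. Foxa2, Pmepa1, Lhx1 and Acvr2b thus were called with both WT pairs and in the same direction of KO against WT.

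In ESC the calls lay mostly in the targets for KO, KO-L and KO-L3D, and in the ligands and their processing for KO-S. In ESC KO, 5 of 10 targets were higher and 1 lower, with a median log2 fold change of 1.25 over the 10 against 0.01 over all genes. Gsc rose by 5.31 (SE 0.83, adjusted p 8.84e-09), T (brachyury, the primitive streak factor) by 3.48, Eomes by 1.80 and Pmepa1 by 0.83, while Skil, a Smad corepressor, fell by 1.47. In ESC WT, Gsc measured 0 to 4.00 and T 5.24 to 11.0 normalised reads, so their fold changes over WT start from few reads. Over the whole list 7 of 31 were higher and 4 lower, where 18.3% of all genes were called, among them Pcsk6, a convertase that cleaves Nodal (1.34), and the inhibitory Smad7 (0.84) above, and Foxh1 (-0.64), Ski (-0.47) and Tgif2 (-0.49) below. In ESC KO-L3D, 6 of 30 were higher and 3 lower, where 18.3% of all genes were called, with Eomes at 3.59, Gsc at 5.30, Smad7 at 1.89 and Skil at -2.49. ESC KO-L had 3 of 28 higher, T (4.96) and Eomes (1.61) among them, and none lower, where 2.23% of all genes were called. ESC KO-S had 4 of 27 higher, Pmepa1 (1.63), Inhbb (1.54), Pcsk6 (1.52) and Furin (0.97), and Otx2 lower (-1.63), where 7.91% of all genes were called. ESC KO-S3D had Eomes (1.99) and Smad7 (1.47) higher and Skil (-1.79) lower among 25 (3.23% of all genes). ESC CSex4 had T (4.71) and Fst (1.73) higher and Inhbb (-1.37) lower among 28 (2.41% of all genes), and ESC Deltaex4 had none of 31 (DESeq2, with 135 genes of all at an unadjusted p under 0.05). Each of these ESC tables uses the same 3 WT libraries, of which library c stood apart. Its sum of endoderm markers was 9479 normalised reads, against 462 in library a and 520 in library b. Its sum of mesoderm markers was 1050, against 140 and 130. The part of this library in the ESC calls of the pathway list was not tested. Markers of other lineages also moved in ESC KO, with the trophoblast genes Cdx2 and Krt7 and the mesoderm gene Hand1 called higher, and their part in the target values was not tested.

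In the deposited lists of regions from chromatin immunoprecipitation, H3K27me3 regions overlapped 2 of the 6 members, Lefty1 and Lefty2. The lists, made with DiffBind at a false discovery rate of 5% per the track header, hold 6882 H3K27me3 regions and 2865 Suz12 regions, and do not state the direction of the difference or the groups compared. The region at Lefty1 (chr1:180934024-180938833, 4810 bases) spans the whole gene. The region at Lefty2 (chr1:180891470-180894436, 2967 bases) covers one end of it. Of 20992 protein-coding genes, 23.0% had an H3K27me3 region within 2500 bases, so 2 of 6 is near the background. No member had a Suz12 region within 2500 bases, where 12.2% of genes did, and the nearest, 2755 bases from Lefty1 (chr1:180941156-180943862), lies beyond that window. The nearest regions of Nodal, Gdf3 and Tdgf1 were 50413, 10944 and 60425 bases away for H3K27me3.

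Genes within 50000 bases of the members, named for their position alone, were mostly not called where the members were. In NP CSex4 the only one called was Dppa3. Near the Lefty genes, Sde2 and Tmem63a were called neither in NP CSex4 nor in NP KO-L, where they changed by 0.35 (adjusted p 0.252) and -0.42 (adjusted p 0.359). In ESC KO, where Lefty2 rose, Tmem63a (-1.02) and Sde2 (-0.63) fell. Near Nodal, Pald1, 34426 bases away, rose by 0.89 in NP KO-L (adjusted p 0.000200), and Eif4ebp2, 3153 bases away, changed by 0.36 (adjusted p 0.180). Next to Gdf3, the germ cell and stem cell gene Dppa3, 16337 bases away, rose like Gdf3 in NP CSex4 (2.58) and in NP KO-L (2.51, adjusted p 7.21e-10). In ESC KO-L3D it was called lower (-0.90, adjusted p 0.0223, deposited DESeq2 table), where Gdf3 changed by 0.71. Dppa3 was also called lower in ESC KO-S, NP KO against WT replicates 1 and 2, and NP KO-S against KO, where Gdf3 was not called. Near Tdgf1, Als2cl (-1.85) and Lrrc2 (-1.57) fell in NP KO-L, where Tdgf1 was not called.

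The genes whose deposited fold changes were most like those of the members over all 13 tables were ranked by Pearson correlation among 11478 genes. The tables share control libraries and the measure includes the selecting comparison, so the ranking is a description. For Lefty1 the top 5 were Pald1 (0.94), Stat4 (0.94), Etv5 (0.93), Nodal (0.91) and Dnmt3l (0.91), with Lefty2 at rank 24 (0.85). For Lefty2 they were Gdf3 (0.97), Gm6083 (0.96), Dppa5a (0.96), Nodal (0.94) and Klf2 (0.94), with Lefty1 at rank 35. For Nodal they were Lefty2 (0.94), Gdf3 (0.94), Dnmt3l (0.94), Foxh1 (0.93) and Stat4 (0.93), with Lefty1 at rank 10. Tdgf1 was far down each ranking, at rank 1136 for Lefty1, 724 for Lefty2 and 1194 for Nodal. The names depend on the measure: with Spearman correlation, 1 of the 5 was kept for Lefty1, 2 for Lefty2 and 2 for Nodal.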

How the data were processed

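The 32 RNA libraries of 87 samples were analysed through the authors' 13 comparison tables, in which the authors deposited, per gene, a mean of normalised counts (baseMean, a signal scaled for depth), a log2 fold change with its standard error, the test statistic (a score), a p-value and an adjusted p-value. Per the submitters' processing notes the tools were Bowtie, TopHat, DESeq2 and DiffBind with the builds mm10 and dm3, without versions or roles; strandedness and gene models are not given in the sources used here. The deposited region lists give a p-value or false discovery rate per region, by the authors.

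Whole reads of every library were recovered from the deposited means, which are whole numbers divided by library size factors (all 26171 genes, largest relative residual 6.98e-15); 8 genes above a mean of 100000 were left out. The group of a library follows from the tables that hold it and from the side of the deposited fold change of genes read only there. Recomputed log2 fold changes of 5 members differed from the 65 deposited values by at most 0.0142. Normalised reads were tested with limma 3.58.1 on log2(normalised reads + 1), genes with a mean of at least 10, 1 fit per cell type, with Benjamini-Hochberg adjustment over all genes (R 4.3.3, Python 3.11.15). A gene is called at an adjusted p under 0.05. The limma fits, the 8 comparisons without a deposited table and the limma alternatives were added after the data were seen. The scripts were tested on simulated data. The plan named a count test for counts; since the tables hold statistics, the authors' tests are the main result.

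Members and lists were chosen with earlier results of these data known. Named are all 6 members, Suz12, called genes of the pathway lists, called markers, neighbours within 50000 bases (some genes these rules name are not reported here) and the 5 genes most like Lefty1, Lefty2 and Nodal with a mean of at least 100. Alternatives were stricter thresholds, other adjustments and scalings, the replicate block, each library left out, the other WT pair and other region windows.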

Additional observations from a re-analysis of the deposited data

Results flagged for a closer look

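Among the 4 NP WT libraries, the highest Tdgf1 value, 322 normalised reads in library b of replicates 1 and 2, lay far from the other 3 (49.4, 70.6 and 92.0), with a gap of 0.844 of the whole range, just past the limit of Dixon's test for 4 values. For Cer1 a library of replicates 3 and 4 held 2 reads, or 1.16 normalised reads, and the other 3 held 0, so the value is under the floor of 3 reads. Chance gives such a gap in about 1 group in 20 (5%), and 6 genes were looked at. The effect of the knock-out on Tdgf1 was 1.92 larger in NP than in ESC on the log2 scale, by the test of that difference (adjusted p 0.0131). That value used NP WT replicates 1 and 2, where 13.7% of all genes were called.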

How the results depend on the processing

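Limits: groups hold 2 or 3 libraries, so the limma fits borrow the spread of the other groups, and with 1 library left out of a pair the lone library is assumed to vary like them. Counts are members called out of 5. No value called in the main analysis reversed. Gdf3 in NP KO against WT, not called there (-0.36), was called lower without KO library a (-1.53) and called with the opposite sign against WT replicates 3 and 4 (WT over KO -2.15).

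At an adjusted p under 0.01, the members called were 1 in place of 2 in ESC KO, 0 in place of 1 in ESC KO-S and 3 in place of 5 in NP WT against KO. With an absolute log2 fold change of at least 1, they were 1 in ESC KO and 0 in ESC KO-S. Adjustment over genes with a mean of at least 10 moved no count by over 1.5 times in the 13 tables.

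By limma without the replicate block, 0 were called in ESC KO-L and 0 in ESC KO-S in place of 1, and with total-count scaling 0 in ESC KO-L, ESC KO-S and ESC KO-L against KO-S (1). Total-count scaling moved the median of all genes by at most 0.28. With the replicate block, 0 were called in ESC KO, ESC KO-L, ESC KO-S, NP KO-S against KO and ESC KO-L3D against KO-S3D, and 1 in ESC KO-L3D, where both Lefty calls ended (adjusted p 0.0838 for Lefty1 and 0.0584 for Lefty2) and the 1 was Gdf3 (0.0222), not called in the deposited table. The block moved no other count by over 1.5 times. Libraries of one set did not deviate together throughout (correlations of deviations from -0.46 to 0.36), though they did for NP KO with KO-L (0.20) and with KO-S (0.36), so the sets were not treated as pairs.

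With each library left out, limma called 0 in ESC KO, ESC KO-L and ESC KO-S, 0 to 2 in ESC CSex4 and ESC KO-L3D, 0 to 5 in NP CSex4, 1 to 2 in NP KO against WT, 3 to 4 in NP KO-L, 0 to 1 in NP KO-S, and 3 to 5 in NP WT against KO. In the added comparisons the ranges were 0 to 1 for ESC KO-L against KO-S, 1 to 2 for ESC KO-L3D against KO-L, 0 to 1 for ESC KO-L3D against KO-S3D, 3 to 4 for NP KO-L against KO-S, 0 to 2 for NP KO-S against WT replicates 3 and 4, and 0 to 5 between the WT pairs. The NP CSex4 range comes from the comparison that selected the members, so it is a description and no test of them. It shows only that passing the threshold there depended on single libraries. Fewer samples lower the count by construction.

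With WT replicates 3 and 4, 5 were called in NP KO against WT in place of 1, and 3 in the difference of the KO effect in place of 1. Within 10000 bases, 1 member had a Suz12 region in place of 0. The cause was not tested for any of these.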
